A study of Rattus norvegicus with 9 samples.

Results

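Matricellular and adhesive matrix proteins were followed in lung fibroblasts of rat pups at postnatal days 2, 7 and 21. The set held osteopontin (Spp1), tenascin C (Tnc), thrombospondins 1 and 2 (Thbs1, Thbs2), periostin (Postn), Sparc, fibronectin (Fn1), vitronectin (Vtn) and the CCN proteins Ccn1 and Ccn2. Members were the probe sets annotated to 1 of these 10 symbols and to no other gene, and the brightest probe set over all arrays represented a gene. Of the 10 genes, 9 were measured, by 10 of the 31042 probe sets tested, against 14217 genes with a single-symbol probe set in all. No probe set carried Thbs1 as its only symbol in the annotation used, and Thbs1 was not analysed here.

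Freshly isolated cells were pooled within a litter, and the 3 litters of each day gave 9 samples on 9 Affymetrix arrays. The day 2 pools came from 5 pups each, before septation, in which ridges of the saccule wall grow out and partition the airspaces into alveoli. The day 7 pools came from 4 pups each while septation was in progress, and the day 21 pools from 4 pups each once it had ended. In all groups the lung was dispersed with trypsin and collagenase and the cells that attached to plastic within 45 min were kept. No treatment or genetic change was named for any group, and the sources used here give neither strain nor sex. A short attachment step also keeps other adherent lung cells, so each level is that of a mixed preparation.

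Matricellular proteins are secreted into the matrix, where they modulate cell adhesion and growth factor signalling rather than bear load. Fibronectin and vitronectin are adhesive glycoproteins that cells grip through integrins. Several members are abundant in developing or healing tissue and scarce in quiescent adult tissue, and osteopontin is also made in quantity by macrophages.

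Fibroblast markers were well expressed on every array. The 14 measured markers averaged log2 9.82 to 10.02 at day 2, 10.11 to 10.18 at day 7 and 9.31 to 9.70 at day 21, and none averaged below the low end of the data, log2 4.25, the 25th percentile of all values. Day 21 replicate 3 stood apart within its day, with the lowest fibroblast level (9.31) and the highest level of 21 macrophage markers (10.28, against 9.95 and 9.71 on replicates 1 and 2). Day 7 replicate 3 had the lowest macrophage level of all arrays, 7.53, against 8.37 and 8.43 on its day's replicates 1 and 2. Median probe set intensities lay between 37.9 and 50.4, and precision is limited by having 3 arrays a day.

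Promoter sequence was held for 8 of the 10 genes in the RefSeq table of build GRCr8. The stretches shown belong to Ccn2 and Ccn1, CCN genes with different courses over the 3 days, and to Tnc, which had the largest net change of the measured members. The Ccn2 and Ccn1 stretches hold the 250 bases that end at the base before the start, and the Tnc stretch holds bases 250 to 67 before it. Capitals mark GGAATG, the core of the sites bound by TEAD factors, on either strand. Ccn2 lies at chr1:22624615-22624864, Ccn1 at chr2:237225690-237225939 and Tnc at chr5:82476198-82476381, all on the minus strand and written 5′ to 3′.
Ccn2: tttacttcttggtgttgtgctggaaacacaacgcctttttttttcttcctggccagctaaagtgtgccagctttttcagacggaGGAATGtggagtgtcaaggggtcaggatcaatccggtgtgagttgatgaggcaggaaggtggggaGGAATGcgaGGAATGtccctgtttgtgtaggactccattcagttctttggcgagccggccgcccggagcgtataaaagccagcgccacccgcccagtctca
Ccn1: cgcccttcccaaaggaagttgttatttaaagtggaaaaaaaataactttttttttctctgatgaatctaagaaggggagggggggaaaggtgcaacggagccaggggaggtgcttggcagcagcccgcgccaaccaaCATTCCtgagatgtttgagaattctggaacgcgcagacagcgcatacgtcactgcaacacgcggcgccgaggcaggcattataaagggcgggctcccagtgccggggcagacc
Tnc: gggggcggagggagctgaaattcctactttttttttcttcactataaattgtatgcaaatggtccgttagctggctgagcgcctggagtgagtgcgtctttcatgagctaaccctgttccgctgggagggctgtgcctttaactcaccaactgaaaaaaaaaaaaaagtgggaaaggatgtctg

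The Ccn2 stretch held GGAATG 3 times, starting 166, 101 and 92 bases before the start, and the Ccn1 stretch held it 1 time, on the opposite strand, 113 bases before the start. The Tnc stretch held 0. Over the 250 bases before the start, GGAATG occurred in 5 of the 8 members with a promoter (Thbs1, Sparc, Vtn, Ccn1 and Ccn2), against 12.1% of 33469 promoters on either strand. TATAAA, the letters of a TATA box, occurred in 5 of 8 (Spp1, Tnc, Postn, Ccn1 and Ccn2), against 12.9% of promoters. Its match began 31 bases before the start in Ccn2, 34 in Ccn1 and 44 in Postn, but 204 in Spp1 and 208 in Tnc. AACCNCA, a form of the RUNX site, occurred in Spp1 at 2 positions and in Vtn, against 12.9% of promoters, and TGANTCA, the AP-1 site, in 0 of 8, against 6.34%. No matches overlapped in these genes, and a match describes letters only.

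The members fell into 4 groups. Spp1 fell at day 7 and rose again at day 21. Tnc, Fn1, Postn and Thbs2 were not called at day 7 against day 2 and fell at day 21 against both earlier days. Ccn2 and Vtn were higher at day 21 than at day 2 but differed in course. The rise of Vtn was called at day 7 against day 2, and that of Ccn2 at day 21 against day 7. Sparc and Ccn1 were not called in any comparison, as were 57.2% of all genes. A call was an adjusted p under 0.05 in limma, a linear model fitted over all probe sets and all 9 arrays.

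**Figure D1:**
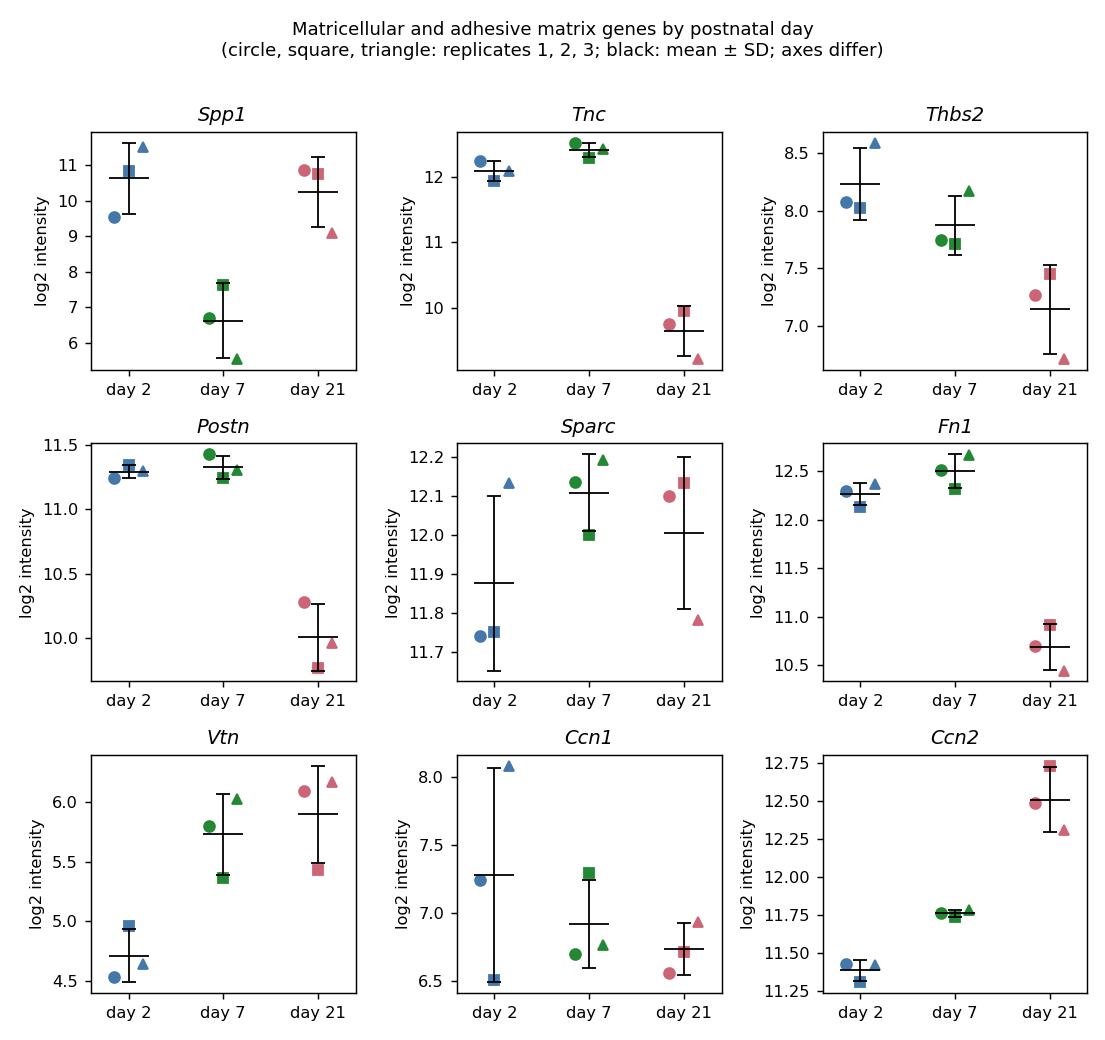
Log2 intensity of the 9 measured members on each array at days 2, 7 and 21, with circles, squares and triangles for replicates 1, 2 and 3 and black bars for the mean ± SD (n = 3 arrays per day), each panel on its own axis. Spp1 dips at day 7, Tnc, Fn1, Postn and Thbs2 are lowest at day 21, and Ccn2 is highest at day 21.

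Of the 9 measured members, 2 were called at day 7 against day 2 (1 higher, 1 lower), where 11.4% of all genes were called (7.02% higher, 4.41% lower). At day 21 against day 7 the count was 6 of 9 (2 higher, 4 lower), where 38.1% of all genes were called (13.7% higher, 24.4% lower). At day 21 against day 2 it was also 6 of 9 (2 higher, 4 lower), where 24.1% of all genes were called (8.8% higher, 15.3% lower). The same shares of all genes are the reference for the counts of the other lists below. The median log2 change of the members was 0.23, -0.19 and -0.54 in these 3 comparisons, against 0.07, -0.01 and 0.02 over all genes. Arrays of the compared days did not overlap for 4, 6 and 6 of the 9 members, against 27%, 42.4% and 36.5% of all probe sets. These shares are the reference wherever arrays are said not to overlap. The comparisons share arrays, and the members were chosen with earlier results known, so the counts describe these genes only.

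Spp1, the gene of osteopontin, an integrin- and CD44-binding phosphoprotein, varied most. Its log2 intensity was 9.55, 10.84 and 11.52 on replicates 1, 2 and 3 of day 2, 6.70, 7.64 and 5.54 on those of day 7, and 10.88, 10.77 and 9.11 on those of day 21. Every day 7 array lay below every array of the other days, and the arrays of days 21 and 2 overlapped. Spp1 was 16.1-fold lower at day 7 than at day 2 (log2 change -4.01 ± 0.61, limma adjusted p = 0.00312). The SE here and below is that of the limma fit to all 9 arrays, 3 arrays a day. Spp1 was 12.3-fold higher at day 21 than at day 7 (3.63 ± 0.61, limma adjusted p = 0.000675). Between days 21 and 2 the change was -0.39, with a 95% interval of -1.71 to 0.94 (adjusted p = 0.698). The spread within a day was wide, with SDs of 0.99 at day 21, 1.05 at day 7 and 1.00 at day 2. The direction and the call of both changes held whichever array was left out, with changes of -4.55 to -3.47 and of 3.08 to 4.20. A fall at day 7 followed by a rise at day 21 was called for 535 genes, 3.76% of all.

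Macrophage markers moved with Spp1. Of 21 measured, 16 fell at day 7 against day 2, 21 rose at day 21 against day 7 and 4 rose at day 21 against day 2. The last count was 2 without day 2 replicate 1 or day 21 replicate 3, and 7 without day 7 replicate 3. Their summed intensity was 25825 to 29285 at day 2, 8656 to 14189 at day 7 and 30048 to 42065 at day 21, and none averaged below the low end on any day. Within days the order was not shared throughout: the lowest Spp1 of day 7 was on the array with the lowest macrophage level (replicate 3), whereas the lowest Spp1 of day 21 was on the array with the highest (replicate 3). When the macrophage mean entered the fit as a covariate, the Spp1 change was -2.66 ± 1.42 at day 7 against day 2 (adjusted p = 0.465) and 1.86 ± 1.78 at day 21 against day 7 (adjusted p = 0.693). The part of macrophages in the Spp1 changes was not tested beyond this fit, whose covariate itself differed between day 7 and the other days without overlap.

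Markers of cartilage cells, which can also make osteopontin, moved in the same way. Of 12 chondrocyte markers, 7 fell at day 7 against day 2 (4 without day 2 replicate 1) and 9 rose at day 21 against day 7. Their summed intensity was 1316 to 2678 at day 2, 258 to 369 at day 7 and 903 to 3716 at day 21, and 4 of the 12 averaged below the low end at day 7. Their level was highest on replicate 2 of day 21 and replicate 1 of day 2, which were not the arrays with the highest Spp1 of those days. Their part in the result was not tested. In these bulk samples fewer cells of a type and less RNA per cell cannot be told apart, and this holds for every change reported here.

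**Figure D2:**
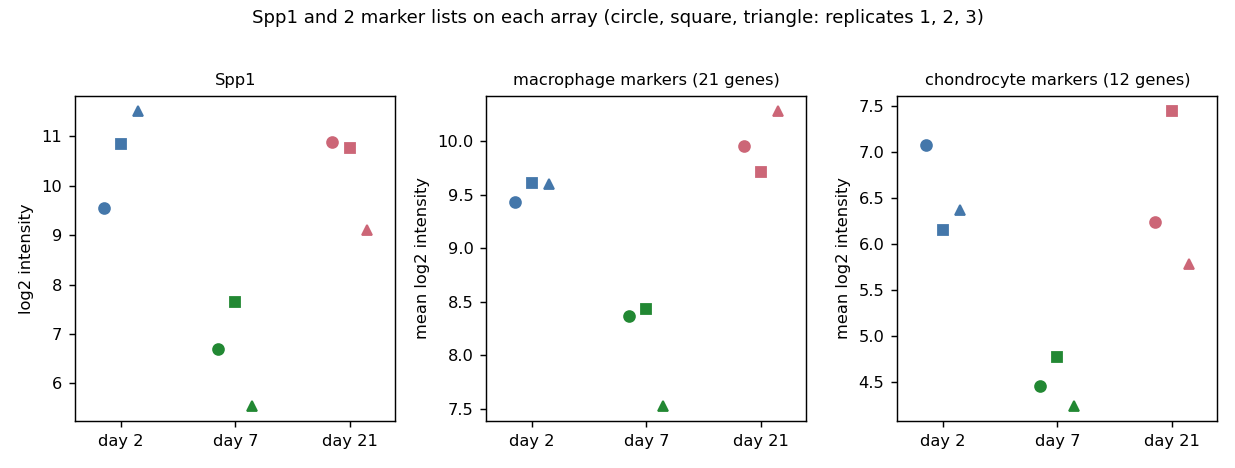
Log2 intensity of Spp1 and mean log2 intensity of 21 macrophage and 12 chondrocyte markers on each array at days 2, 7 and 21, with circles, squares and triangles for replicates 1, 2 and 3. All 3 are lowest at day 7, while the day 21 array with the highest macrophage level, replicate 3, has the lowest Spp1 of its day.

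The genes whose values followed Spp1 most closely over the 9 arrays were Chac1 (Pearson r = 0.98), which degrades glutathione, Tmem37 (0.96) and the chemokine Cxcl3 (0.96). These are the 3 highest of 2949 genes that varied by an SD of at least 0.5. All 3 averaged lowest at day 7, as Spp1 did, so r also reflects the differences between days. Chac1 averaged log2 8.97 at day 2, 6.96 at day 7 and 8.48 at day 21, and Cxcl3 10.23, 7.51 and 10.63.

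Tnc, the gene of tenascin C, a hexameric protein that loosens cell adhesion, had the largest change after Spp1. Log2 intensities were 12.24, 11.94 and 12.09 at day 2, 12.51, 12.29 and 12.42 at day 7, and 9.75, 9.95 and 9.21 at day 21. All day 21 arrays lay far below all others, and all day 7 arrays lay above all day 2 arrays by a small margin. Tnc was 6.84-fold lower at day 21 than at day 7 (log2 change -2.77 ± 0.19, limma adjusted p = 1.36e-06) and 5.48-fold lower than at day 2 (-2.45 ± 0.19, adjusted p = 9.66e-06). Its change at day 7 against day 2 was 0.32 ± 0.19 (adjusted p = 0.392), with an interval of -0.10 to 0.74.

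Fn1, the gene of fibronectin, which assembles into fibrils and carries integrin-binding sites, ran close beside Tnc. Its log2 intensity was 12.29, 12.13 and 12.36 at day 2, 12.51, 12.32 and 12.67 at day 7, and 10.70, 10.92 and 10.45 at day 21. The day 21 arrays did not overlap the others, and those of days 7 and 2 overlapped. Fn1 was 3.50-fold lower at day 21 than at day 7 (log2 change -1.81 ± 0.17, limma adjusted p = 9.99e-06) and 2.98-fold lower than at day 2 (-1.58 ± 0.17, adjusted p = 8.15e-05). Over the 9 arrays Fn1 and Tnc correlated at 0.99, as a description of arrays that fall into days. Fibronectin splice forms cannot be told apart by this single probe set.

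Postn, the gene of periostin, a collagen- and integrin-binding protein of fibroblasts, had the tightest values of these genes at days 2 and 7. The arrays gave log2 values of 11.24, 11.35 and 11.30 at day 2, 11.43, 11.25 and 11.30 at day 7, and 10.28, 9.77 and 9.96 at day 21. The arrays of days 7 and 2 intermixed and those of day 21 lay below them. Postn was 2.50-fold lower at day 21 than at day 7 (log2 change -1.32 ± 0.16, limma adjusted p = 6.45e-05) and 2.45-fold lower than at day 2 (-1.29 ± 0.16, adjusted p = 0.000237). The change at day 7 against day 2 was 0.03, with an interval of -0.32 to 0.38.

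Thbs2, the gene of thrombospondin 2, an inhibitor of vessel growth that also shapes collagen fibrils, fell less. On the log2 scale its intensity was 8.07, 8.03 and 8.59 at day 2, 7.74, 7.71 and 8.17 at day 7, and 7.27, 7.45 and 6.71 at day 21. On each day replicate 3 was the extreme array, the highest at days 2 and 7 and the lowest at day 21. Thbs2 was 2.13-fold lower at day 21 than at day 2 (log2 change -1.09 ± 0.23, limma adjusted p = 0.00656) and 1.66-fold lower than at day 7 (-0.73 ± 0.23, adjusted p = 0.0296). The call against day 7 did not hold when day 21 replicate 3 was left out (-0.52, limma adjusted p = 0.122) or when day 7 replicate 3 was (-0.58, adjusted p = 0.108). Nor did it hold with arrays centred on their medians (-0.62, limma adjusted p = 0.0745) or when quantile normalization was added (-0.54, adjusted p = 0.0579).

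With the macrophage list as a covariate none of these falls at day 21 against day 7 was called. The changes were -2.07 for Tnc (limma adjusted p = 0.146), -1.01 for Fn1 (0.349) and -1.50 for Postn (0.218), and 0.49 for Thbs2 (0.748), the opposite direction. The macrophage mean was 7.53 to 8.43 at day 7 and 9.71 to 10.28 at day 21, so that fit cannot decide this comparison. In it the SE of the Tnc change was 0.53, against 0.19 without the covariate. The falls at day 21 against day 2 were all called in that fit, with limma adjusted p from 0.000151 to 0.0481. They were -2.29 for Tnc, -1.39 for Fn1, -1.33 for Postn and -0.81 for Thbs2. The macrophage mean of day 2, 9.43 to 9.61, also lay below every day 21 array, by a smaller margin. That fit therefore cannot decide this comparison either. Fibroblast markers were also uneven at day 21: of 14, 5 fell and 1 rose against day 7, and likewise against day 2. That was 42.9% of the list each time, where 38.1% and 24.1% of all genes were called. Tcf21 and Meox2, transcription factors of lung mesenchyme, fell against day 7 by 2.44 and 4.08 on the log2 scale, and Dcn, the proteoglycan decorin, rose by 1.29. The part of such shifts among cells in the falls was not tested.

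**Figure D3:**
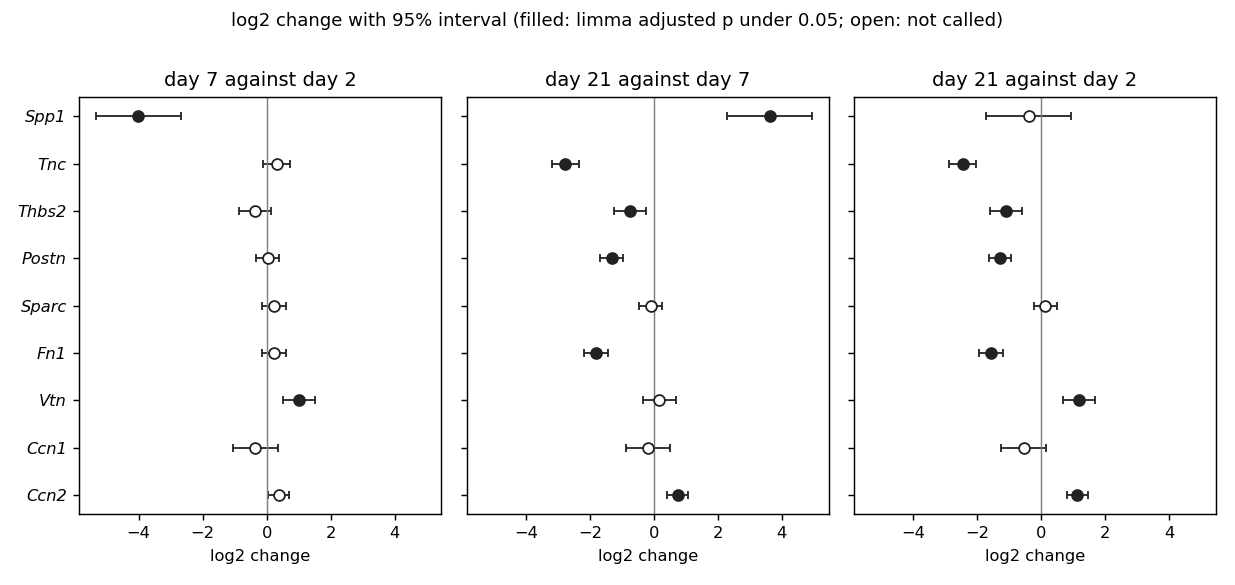
Log2 change of the 9 measured members with its 95% interval from limma in the 3 comparisons (later against earlier day), with filled points for an adjusted p under 0.05. Spp1 lies at -4.01 at day 7 against day 2 and at 3.63 at day 21 against day 7, and Tnc, Thbs2, Postn and Fn1 lie below 0 in both day 21 comparisons.

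The genes most like these in pattern over the 9 arrays included matrix genes. Srpx2, a secreted sushi-repeat protein, was closest to Tnc (r = 0.998) and second closest to Fn1 (0.995). It averaged log2 8.77 at day 2, 9.21 at day 7 and 5.08 at day 21. Enpep, a membrane aminopeptidase, and Cfl2, a cofilin, followed Tnc (0.996 and 0.995), and Phlda3 (0.996) and Ablim1 (0.994) followed Fn1. Postn was closest to Zwilch, a kinetochore protein, the microfibril-associated Mfap4 and the growth factor Ptn (0.98 each). Thbs2 was closest to matrilin 2 (Matn2, 0.97), fibulin 1 (Fbln1, 0.96) and the replication factor Mcm2 (0.96).

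Ccn2, the gene of connective tissue growth factor, a cofactor of TGF-beta signalling and a target of TEAD factors, was higher at day 21 than on the earlier days, where Tnc was lower. Log2 intensities were 11.43, 11.31 and 11.42 at day 2, 11.77, 11.74 and 11.78 at day 7, and 12.49, 12.73 and 12.31 at day 21. The 3 days did not overlap, and the day 7 arrays agreed within an SD of 0.02. Ccn2 was 1.68-fold higher at day 21 than at day 7 (log2 change 0.75 ± 0.15 SE, limma adjusted p = 0.00223) and 2.18-fold higher than at day 2 (1.13 ± 0.15, adjusted p = 0.000381). At day 7 against day 2 the change of 0.38 ± 0.15 missed the threshold (adjusted p = 0.158) and passed it with an intensity trend and a robust prior (adjusted p = 0.0463). The macrophage covariate was lower on every day 7 array than on the others, so its fit cannot decide the change at day 21 against day 7. Given that covariate, this Ccn2 change was 1.14 and not called (limma adjusted p = 0.285). The Ccn2 change at day 21 against day 2 was 1.22 in that fit (limma adjusted p = 0.00149). Between those days the covariate did not overlap either, so the fit cannot decide that change. The genes most like Ccn2 were Cyb561 and Plpp3 (r = 0.98 each) and the junction protein Jcad (0.97). Plpp3 is an enzyme that degrades lysophosphatidic acid.

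Ccn1, the CCN protein known as an immediate early gene, was not called. The arrays gave log2 values of 7.24, 6.51 and 8.08 at day 2, 6.70, 7.29 and 6.76 at day 7, and 6.55, 6.71 and 6.93 at day 21. The days overlapped, and the day 2 arrays ranged most widely (SD 0.79). The change was -0.36 at day 7 against day 2 (interval -1.06 to 0.34) and -0.54 at day 21 against day 2 (interval -1.25 to 0.16, limma adjusted p = 0.264). The second of these was called without day 2 replicate 2, the lowest of its day (-0.93, adjusted p = 0.0482).

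Of 19 measured genes known as YAP or TEAD targets, 4 rose and 1 fell at day 7 against day 2, 5 rose and 9 fell at day 21 against day 7, and 3 rose and 6 fell at day 21 against day 2. The 5 calls of the first comparison were 3 without day 2 replicate 2 or day 7 replicate 2. Their median log2 changes were 0.38, -0.21 and 0.10. The calls made up 26.3%, 73.7% and 47.4% of the list, against 11.4%, 38.1% and 24.1% of all genes. Nuak2, a kinase, rose by log2 1.85 ± 0.17 at day 21 against day 7, as Ccn2 did, whereas Ajuba (-2.06 ± 0.18) and Amotl1 (-2.10 ± 0.30), which act in the same pathway, fell. Of 15 genes induced by TGF-beta, 4 rose and 4 fell at day 21 against day 7, 5 rose and 2 fell at day 21 against day 2, and limma called 0 at day 7 against day 2, where 2 were higher and 0 lower at an unadjusted p under 0.05. Tgfb1, the ligand itself, rose by log2 2.71 ± 0.43 at day 21 against day 7 (adjusted p = 0.000491) while Lox, the crosslinking enzyme, changed by -1.32 ± 0.22.

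Immediate early and heat shock genes can be induced by handling of cells. Of 22 measured, 7 rose and 1 fell at day 7 against day 2, 8 rose and 1 fell at day 21 against day 7, and 13 rose and 0 fell at day 21 against day 2. The 8 calls of the first comparison were 4 or 5 without day 2 replicate 1 or 2 or day 7 replicate 1 or 3 and 4 with arrays centred, and the 9 of the second were 4 without day 7 replicate 2. Their mean log2 level was 10.13 to 10.16 at day 2, 10.38 to 10.54 at day 7 and 10.68 to 10.93 at day 21, in the same order as Ccn2. The calls in the 22 genes made up 36.4%, 40.9% and 59.1%, against 11.4%, 38.1% and 24.1% of all genes. Junb rose by log2 1.54 ± 0.21 and Nr4a3 by 1.36 ± 0.16 at day 21 against day 2. Their part in the Ccn2 and Ccn1 values was not tested.

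Vtn, the gene of vitronectin, a plasma and matrix protein that anchors cells and plasminogen activator inhibitor, was dim. Its log2 intensity was 4.54, 4.96 and 4.64 at day 2, 5.80, 5.36 and 6.03 at day 7, and 6.09, 5.43 and 6.17 at day 21. Every day 2 array lay below every later array, close above the low end of log2 4.25, which can understate the change. Vtn was 2.02-fold higher at day 7 than at day 2 (log2 change 1.02 ± 0.23, limma adjusted p = 0.0193) and 2.27-fold higher at day 21 than at day 2 (1.18 ± 0.23, adjusted p = 0.0045). The first call was lost with arrays centred on their medians (adjusted p = 0.0537), with quantile normalization added (0.0939), with the macrophage list as a covariate (0.504) and in 4 of the 9 fits that left out 1 array: without day 2 replicate 1 (0.061), day 2 replicate 3 (0.0672), day 7 replicate 1 (0.0619) or day 7 replicate 3 (0.0649). The genes most like Vtn were Nr4a3 (r = 0.88), Hlf (0.85) and Mamdc2 (0.85), the lowest values among the 7 members for which likeness was computed.

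Sparc, a collagen-binding glycoprotein of bone and healing tissue, was not called on either of its probe sets. The brighter had log2 intensities of 11.74, 11.75 and 12.13 at day 2, 12.13, 12.00 and 12.19 at day 7, and 12.10, 12.13 and 11.78 at day 21. The dimmer had 10.32, 10.23 and 11.45, then 10.68, 11.04 and 11.09, then 11.21, 11.42 and 10.99. The changes at day 21 against day 7 had opposite signs, -0.10 on the brighter (interval -0.47 to 0.26) and 0.27 on the dimmer (interval -0.35 to 0.89). At day 21 against day 2 the brighter changed by 0.13, with an interval of -0.23 to 0.49. The dimmer changed by 0.54 there, with a wider interval of -0.08 to 1.16.

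Receptors for these proteins changed in both directions. Of 20 measured, 5 rose and 4 fell at day 7 against day 2, 7 rose and 6 fell at day 21 against day 7, and 2 rose and 2 fell at day 21 against day 2. Their median log2 changes were 0.11, 0.08 and 0.13. The calls made up 45%, 65% and 20% of the receptors, against 11.4%, 38.1% and 24.1% of all genes. The 9 calls at day 7 against day 2 were 5 with arrays centred on their medians or averaged over probe sets, and 3 to 5 without day 2 replicate 2 or 3 or day 7 replicate 2 or 3. The 4 calls at day 21 against day 2 were 2 without day 2 replicate 2.

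Itga8, the integrin chain that with Itgb1 binds fibronectin, vitronectin, tenascin C and osteopontin, had log2 intensities of 8.59, 8.07 and 8.28 at day 2, 9.35, 8.96 and 9.78 at day 7, and 5.02, 5.49 and 4.40 at day 21. The 3 days did not overlap. Itga8 rose at day 7 against day 2 (log2 change 1.05 ± 0.28, limma adjusted p = 0.0377) and fell at day 21 against day 7 (-4.39 ± 0.28, adjusted p = 7.81e-07). Ptprz1, a receptor phosphatase that binds tenascin C, fell at day 21 against day 7 (-2.00 ± 0.21), to 3.34, 3.85 and 3.14, below the low end. Itga5, the fibronectin receptor chain, rose in that comparison (1.72 ± 0.42, adjusted p = 0.00736), with 7.45, 7.63 and 7.47 at day 21 against 5.78, 5.64 and 5.97 at day 7.

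Cd44, which binds osteopontin and hyaluronan, had log2 intensities of 11.00, 11.01 and 11.13 at day 2, 10.23, 10.14 and 9.87 at day 7, and 11.56, 11.49 and 11.55 at day 21, with no overlap between days. It fell at day 7 against day 2 (log2 change -0.97 ± 0.15, limma adjusted p = 0.00304) and rose at day 21 against day 2 (0.49 ± 0.15, adjusted p = 0.0366). Plaur, the urokinase receptor, which also binds vitronectin, fell at day 7 against day 2 (-1.58 ± 0.22) and rose at day 21 against day 7 (1.71 ± 0.22). Cd36, a thrombospondin receptor, fell at day 7 against day 2 (-1.13 ± 0.27, adjusted p = 0.0251). Macrophages express Cd44, Plaur and Cd36 as well, and the macrophage levels given above moved with them. Their part was not tested.

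**Figure D4:**
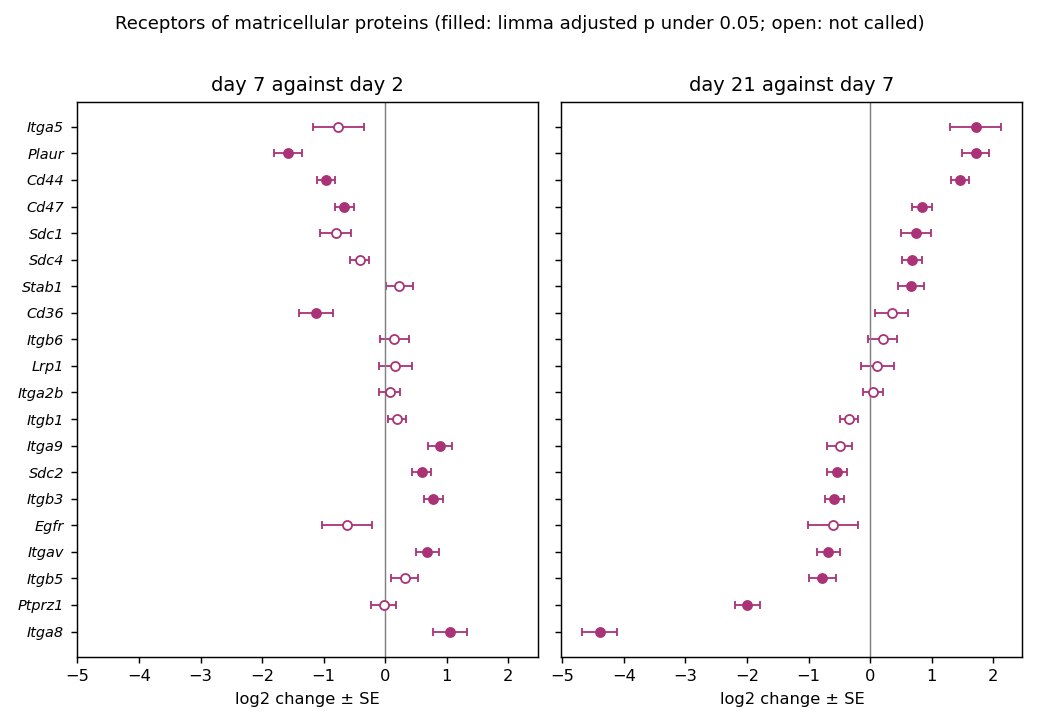
Log2 change ± SE of 20 receptors of matricellular proteins at day 7 against day 2 and at day 21 against day 7, ordered by the second change, with filled points for a limma adjusted p under 0.05. Itga8 lies at 1.05 and -4.39, and Plaur at -1.58 and 1.71.

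Among 26 other matricellular genes, 1 rose and 2 fell at day 7 against day 2, 11 rose and 3 fell at day 21 against day 7, and 4 rose and 3 fell at day 21 against day 2. Their median log2 changes were 0.01, 0.39 and 0.21. The calls made up 11.5%, 53.8% and 26.9% of the list, against 11.4%, 38.1% and 24.1% of all genes. The first and last shares were thus near those of all genes. Ccn3, another CCN protein, had log2 intensities of 8.53, 8.46 and 8.69 at day 2, 8.02, 8.21 and 7.92 at day 7, and 9.75, 9.58 and 9.80 at day 21. It rose at day 21 against day 7 (log2 change 1.66 ± 0.15, limma adjusted p = 7.98e-06). Ecm2, a leucine-rich matrix protein, rose in each comparison (0.77, 1.42 and 2.18), and Comp, the cartilage thrombospondin, which the chondrocyte list also holds, fell at day 7 against day 2 (-1.67 ± 0.47) and rose at day 21 against day 7 (2.21 ± 0.47) as the chondrocyte markers did. Srpx2 fell at day 21 against day 7 by 4.13 ± 0.25 on the log2 scale. The 3 calls at day 7 against day 2 were 5 when quantile normalization or a trend with a robust prior was used, 1 with a replicate block and 0 or 1 without any single array of days 7 or 2.

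Among 21 other adhesive glycoproteins, 1 rose and 3 fell at day 7 against day 2, 4 rose and 10 fell at day 21 against day 7, and 3 rose and 8 fell at day 21 against day 2. Their median log2 changes were 0.26, -0.36 and -0.21. The calls made up 19%, 66.7% and 52.4% of the list, against 11.4%, 38.1% and 24.1% of all genes. Fbln5, the elastic fibre protein fibulin 5, fell by 3.36 ± 0.28 on the log2 scale at day 21 against day 7 (limma adjusted p = 4.97e-06), and Emilin1, another elastic fibre protein, by 2.50 ± 0.25. Egflam, also called pikachurin, rose at day 7 against day 2 (1.14 ± 0.18) and fell at day 21 against day 7 (-3.27 ± 0.18). Nid1, the basement membrane linker nidogen 1, fell by 2.43 ± 0.22 at day 21 against day 7.

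Of 16 enzymes that cleave or crosslink these proteins, 0 rose and 5 fell at day 7 against day 2, 7 rose and 2 fell at day 21 against day 7, and 2 rose and 0 fell at day 21 against day 2. The 5 falls were 3 without day 2 replicate 2, and the 2 rises were 5 calls with a trend and robust prior. In the main fit the calls made up 31.2%, 56.2% and 12.5% of the enzymes, against 11.4%, 38.1% and 24.1% of all genes. Mmp12, the macrophage elastase, had log2 intensities of 10.18, 10.79 and 10.89 at day 2, 8.30, 9.20 and 8.27 at day 7, and 11.22, 11.28 and 11.29 at day 21. It fell at day 7 against day 2 (log2 change -2.03 ± 0.26, limma adjusted p = 0.00134) and rose at day 21 against day 7 (2.67 ± 0.26). Mmp3, stromelysin 1, which cleaves osteopontin and fibronectin, changed by -2.16 ± 0.42 and 3.04 ± 0.42 in these comparisons, with a day 7 level of 3.16 to 3.66, below the low end.

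Other markers moved as follows. Of 11 endothelial markers, 8 fell and 0 rose at day 21 against day 7, and 5 fell and 1 rose at day 21 against day 2, with a mean log2 level of 6.17 to 6.50 at day 2, 6.69 to 6.88 at day 7 and 5.49 to 5.97 at day 21. They were lower at day 21 as Tnc, Fn1, Postn and Thbs2 were, and their part was not tested. Of 12 smooth muscle and pericyte markers, 4 rose and 3 fell at day 21 against day 7 (4 calls without day 21 replicate 2), and of 12 alveolar epithelial markers, 4 rose and 2 fell (3 calls without day 7 replicate 2 or day 21 replicate 2). Of 6 markers of megakaryocytes and platelets, 1, Pf4, rose at day 21 against day 7 (log2 change 1.82 ± 0.25) and 5 were not called. Among 4 mesothelial markers Msln fell at day 7 against day 2 (-1.79 ± 0.44) and rose at day 21 against day 7 (2.53 ± 0.44). The other 3 were not called in either comparison. The mesothelial mean was 6.09 to 6.90 at day 2, 4.96 to 6.06 at day 7 and 5.85 to 7.14 at day 21. Spp1 was also lowest at day 7, and the part of mesothelial cells was not tested.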

How the data were processed

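The authors deposited probe set intensity values for 9 single-colour Affymetrix arrays, and the submitters' processing notes name RMA and affy. The sources used here give no version, probe set definition or filter. In its usual form RMA corrects background, quantile-normalises arrays and combines the probes of a set, and dim probe sets then show compressed changes. The deposited intensities are linear, so log2 was taken. Array medians still differed (log2 5.24 to 5.66). No arrays held identical values.

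The table held 31099 probe sets. The 57 AFFX controls were left out. Platform annotation gave 1 symbol to 20826 probe sets, several to 436 and none here to 9780. Tests used R 4.3.3 with limma 3.58.1 (a linear model with a mean per day and no covariate, then empirical Bayes), two-sided, with Benjamini-Hochberg adjustment over all 31042 probe sets within a comparison. Residual and prior degrees of freedom were 6 and 5.69. Background percentages are over the 14217 genes by brightest probe set. Errors are limma SEs unless stated, intervals 95%. The procedure was tested on simulated data.

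The members, the 15 other gene lists and the naming rule (all members, up to 4 called genes per list and comparison with the largest change, and the 3 genes most correlated with a called member) were chosen with earlier results of these data known. Alternatives were median centring, further quantile normalization, a filter on probe sets below log2 4.25, log2(value + 16), an intensity trend with a robust prior, the mean over probe sets, a replicate block, the macrophage list as covariate and omission of each array. The p-values measure the spread between litters. The labels do not say that a shared litter number links samples of different days.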

Additional observations from a re-analysis of the deposited data

How the results depend on the processing

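Over 17 alternatives the 27 changes of single members gave 459 values. Of these, 423 kept direction and side of the threshold, 17 lost the call, 2 gained it and 17 changed sign, none of the last with a call in the alternative. The number of members called at day 7 against day 2, 2, was 1 with each array centred on its median, 1 after a further quantile normalization and 0 with the macrophage list as a covariate (limma, 1 at an unadjusted p under 0.05), and 1 to 2 when an array was left out. At day 21 against day 7 the count of 6 was 0 with that covariate (4 at an unadjusted p under 0.05) and 5 to 6 when an array was left out, and at day 21 against day 2 it was 6 with the covariate and 6 to 7 when an array was left out. The replicate block left the counts at 2, 6 and 6 and changed no call of a member. Same-numbered arrays deviated together at r over 0.1 in 2 of 9 pairs (-0.24 to 0.41), and 4 of 9 arrays correlated best with their own number. With deviations from the mean of only 3 arrays a day, these values cannot decide whether a number links samples of different days.

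Sign changes at day 7 against day 2 under the covariate were those of Tnc (-0.22), Sparc (-0.10), Fn1 (-0.38) and Ccn1 (0.10), and at day 21 against day 7 those of Thbs2 (0.49) and Sparc (0.33). Median centring turned Postn at day 7 against day 2 (-0.065) and Sparc at day 21 against day 7 (0.0061), the mean over probe sets turned Sparc there (0.082), and quantile normalization turned Ccn1 there (0.012). When an array was left out, Postn (-0.019 to 0.072) and Ccn1 (-0.74 to 0.043) at day 7 against day 2, Sparc (-0.17 to 0.0078), Vtn (-0.017 to 0.40) and Ccn1 (-0.29 to 0.0018) at day 21 against day 7, and Spp1 at day 21 against day 2 (-0.93 to 0.19) crossed 0. The cause was not tested.

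Over all probe sets the 2775 calls at day 7 against day 2 became 1523 to 2969 when an array was left out and 0 with the covariate (limma, 3702 at an unadjusted p under 0.05). The covariate gave 71 calls in place of 9339 at day 21 against day 7 and 3407 in place of 5891 at day 21 against day 2. It was lower on every day 7 array than on the others, and lower on every day 2 array than on every day 21 array. Its fit thus cannot decide the calls in any of the 3 comparisons. Centring moved the median of all probe sets at day 21 against day 7 to 0.13, against 0.02 as deposited. Of all calls, those in the higher direction made up 61.5%, 36.6% and 36% in the 3 comparisons as deposited, 53.5%, 48.5% and 47.3% after quantile normalization and 41.5%, 48% and 39.6% with centring. Of 765 counts for the other lists, 114 moved by over 1.5 times, 31 of them under the covariate. Vtn, at log2 4.54 to 4.96 on day 2, is the member nearest to background.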
